A study of Mus musculus with 30 samples.

Results

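The comparison was between mouse embryonic stem cells of the clone NgR after a 12 h doxycycline pulse given at day 1 of withdrawal (day 1 +12h Dox) and the same clone at day 1, just before that pulse (day 1 -Dox). It used 6 of the 30 arrays of the series, 3 per group, chosen by their labels alone. Total RNA was read on microarrays (Affymetrix Mouse Gene 1.0 ST), and each value is the log2 signal of a transcript cluster, the probes that together read 1 transcript unit. Of the 28815 clusters, the 23385 with a gene symbol were tested. Because the starting state, and not the time-matched control, was the reference, the comparison asks which genes moved after doxycycline came back, apart from genes whose further change was only prevented.

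All groups were the same genotype, labelled AINV15_Nanog_Rescue Clone, 1 clone derived from ES cells that express rtTA, the doxycycline-dependent activator, and kept on primary mouse embryonic fibroblasts. The pulsed cells (day 1 +12h Dox) had been without doxycycline for 1 day and then had it for 12 h. The timed control (day 1 -12h Dox) was taken at the same hour without the pulse. The start point (day 1 -Dox) was taken at day 1, and the culture before withdrawal (day 0 +Dox) had been grown with doxycycline at 1 ug/ml. The labels give no dose for the pulse and do not say whether the 3 arrays of a group came from separate cultures, so p-values measure the spread between these arrays, which may be technical. No group received doxycycline without Nanog responding to it, so effects of the drug and of Nanog cannot be told apart, and no group stayed on doxycycline through day 1.

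Nanog is a homeodomain transcription factor of the pluripotent epiblast and of ES cells, and cells that lose it remain able to self-renew but enter differentiation more readily. It acts beside Pou5f1 and Sox2, and it supports genes of the naive state such as Esrrb, Klf4, Tbx3 and Prdm14. In a rescue clone with a doxycycline-driven Nanog, withdrawal lowers Nanog and a pulse restores it, so genes that follow it closely can be set apart from genes that lag.

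The arrays matched their labels as embryonic stem cells. The mean log2 signal of 6 ES cell markers other than Nanog (Pou5f1, Sox2, Zfp42, Dppa5a, Utf1, Lin28a) was 11.94 to 11.98 in pulsed arrays and 11.92 to 11.94 in day 1 -Dox arrays, ranges that overlapped, against array medians of 7.54 to 7.58 and 7.53 to 7.55. The 29 measured feeder fibroblast markers averaged 7.66 to 7.68 in pulsed arrays and 7.64 to 7.66 in day 1 -Dox arrays, and the 7 defining ones (Col1a1, Col1a2, Col3a1, Thy1, Postn, Dcn, Lum) averaged 6.95 to 7.06 and 6.90 to 7.01, ranges that overlapped. In bulk RNA, fewer cells of a type and less RNA per cell cannot be told apart. The interquartile range over clusters was 2.39 to 2.58 in pulsed arrays, 2.50 to 2.76 in the timed control and 2.48 to 2.55 in day 1 -Dox arrays. None of the 30 pairs of arrays of 1 group held identical values.

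Nanog itself returned to its day 0 level. Its signal was 11.10, 11.11 and 11.06 in the pulsed arrays, 10.28, 10.36 and 10.27 in the timed control, 10.32, 10.23 and 10.17 at day 1 -Dox, and 11.04, 11.05 and 11.01 at day 0. Every pulsed array lay above every day 1 -Dox array, a separation found at 10.4% of clusters tested (and the opposite one at 7.52%), and the timed control stayed at the starting level. The rise was 0.85 ± 0.080 on the log2 scale (SE, adjusted p = 1.21e-06), and the pulsed cells stood 0.05 ± 0.080 from day 0 (adjusted p = 0.74). The probes do not separate the endogenous Nanog transcript from the doxycycline-driven one.

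Beyond Nanog, few genes were called after the 12 h of the pulse. At an adjusted p under 0.05, 157 clusters were called, 0.671% of those tested, with 75 higher (0.321%) and 82 lower (0.351%) in pulsed cells than at day 1 -Dox. The median size of a called change was 0.42 on the log2 scale. Only 4 of the 157 changed at least 2-fold, and all 4 were transcripts of the miR-302 cluster. Without any 1 of the 6 arrays the count was 41 to 98, lowest without replicate 3 of day 1 -Dox. It was 71 in a fit of the 2 groups alone and 1534 with array weights, and 2108 clusters had an unadjusted p under 0.05. The balance of directions depended on scaling: 45 higher and 83 lower with array medians centred, and 378 higher and 208 lower with the arrays' interquartile range as a covariate. Over the same 12 h without doxycycline 1462 clusters were called in the timed control against the same start (6.25%), 1174 higher (5.02%) and 288 lower (1.23%). That count was 122 in a fit of the 2 groups alone and 4302 with array weights, so the gap between the 2 comparisons depends on the fit. The split was 569 higher and 293 lower with medians centred and 1338 higher and 793 lower with the interquartile range as a covariate, and leaving out replicate 1 or 3 of day 1 -Dox or replicate 2 of the timed control gave 490, 755 and 549 calls. Without replicate 3 of the timed control the split was 865 higher and 525 lower.

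**Figure D1:**
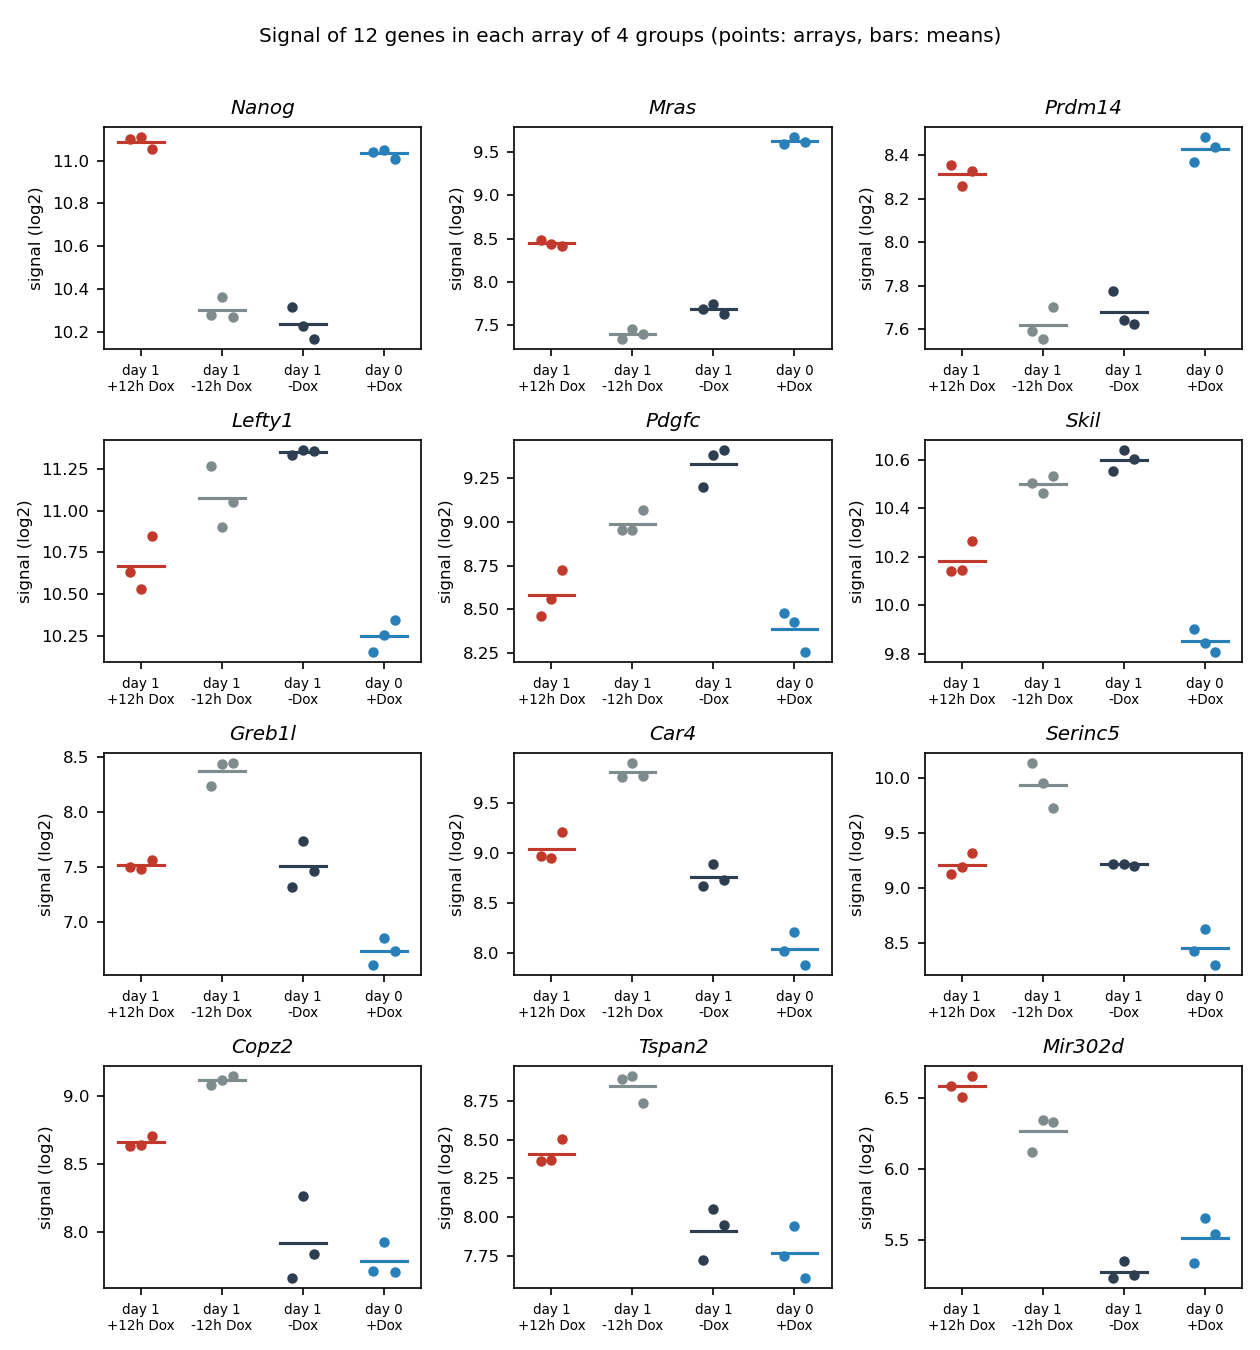
Log2 signal (y axis, a separate scale per panel) of 12 genes in the 3 arrays of day 1 +12h Dox, day 1 -12h Dox, day 1 -Dox and day 0 +Dox; points are arrays and bars are group means. Nanog and Prdm14 stood near their day 0 levels after the pulse, Greb1l and Serinc5 stayed at their day 1 -Dox levels while the timed control was higher, and Copz2, Tspan2 and Mir302d rose with and without the pulse.

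Among genes that moved toward their day 0 level, Mras and Prdm14 had the largest rises after Nanog. The day 1 -Dox arrays enter both the change from day 0 and the movement back, here and for the falls below. A high or low reading in those arrays alone would give a return of this kind. Pulsed cells against the timed control is a contrast without those arrays. There Mras differed by 1.05 ± 0.074 (adjusted p = 2.09e-09) and Prdm14 by 0.70 ± 0.074 (adjusted p = 6.14e-06). Rab27a, Naaa and A2m differed by 0.71, 0.55 and 0.51 (adjusted p = 0.000201, 0.000277 and 0.00809). Mras, a Ras-family GTPase counted here among naive pluripotency genes, had signals of 8.49, 8.44 and 8.41 in pulsed cells, 7.34, 7.46 and 7.40 in the timed control, 7.69, 7.75 and 7.63 at day 1 -Dox, and 9.59, 9.68 and 9.62 at day 0. The pulsed arrays all lay above the day 1 -Dox arrays and all below the day 0 arrays. The rise was 0.76 ± 0.074 (adjusted p = 1.43e-06), the timed control fell by 0.29 (adjusted p = 0.0189), and pulsed cells still stood at -1.18 ± 0.074 from day 0 on the log2 scale (adjusted p = 6.39e-11). A dimmer second Mras cluster differed by -0.02 ± 0.15 between pulsed and day 1 -Dox cells (adjusted p = 0.991), so the 2 clusters of the gene disagree.

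Prdm14, a PR-domain regulator of naive pluripotency and of germ cell specification, had signals of 8.35, 8.26 and 8.33 in pulsed cells against 7.78, 7.64 and 7.62 at day 1 -Dox. It stood at 7.62 ± 0.08 in the timed control and 8.43 ± 0.06 at day 0 (SD, n = 3 each). The pulsed and day 1 -Dox arrays did not overlap. The rise was 0.63 ± 0.074 (adjusted p = 3.11e-05), and the remaining difference from day 0 was -0.12 ± 0.074 (adjusted p = 0.362).

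Rab27a, a GTPase of secretory vesicle transport, had signals of 9.78, 9.70 and 9.81 in pulsed cells and 9.14, 9.29 and 9.23 at day 1 -Dox, against 10.32 ± 0.03 at day 0 (SD, n = 3). Its groups did not overlap, and the rise was 0.55 ± 0.10 (adjusted p = 0.00867; 0.0591 without replicate 1 of day 1 -Dox). Itga1, the collagen-binding integrin alpha 1 chain, had signals of 7.80, 7.56 and 7.40 in pulsed cells, 7.02, 6.78 and 7.10 at day 1 -Dox, and 7.67 ± 0.09 at day 0. It rose by 0.62 ± 0.10 (adjusted p = 0.00301). Naaa, a lysosomal amidase of N-acylethanolamines, averaged 8.88 ± 0.11 in pulsed cells and 8.32 ± 0.03 at day 1 -Dox (SD, n = 3 each), with no overlap. It rose by 0.56 ± 0.083 (adjusted p = 0.000984) and ended 0.38 ± 0.083 above day 0 (adjusted p = 0.00308), without having been called lower at day 1 -Dox than at day 0 (adjusted p = 0.263). The protease inhibitor gene A2m also ended above day 0, by 0.43 ± 0.11 (adjusted p = 0.0101), after a rise of 0.62 ± 0.11 (adjusted p = 0.00483; 0.0546 without replicate 3 of day 1 -Dox), and it too had not been called lower at day 1 -Dox than at day 0 (adjusted p = 0.402). Lix1 rose by 0.61 ± 0.14 (adjusted p = 0.042), a call lost without any 1 array but replicate 1 of day 1 -Dox (adjusted p = 0.134 to 0.273). In the timed control Lix1 and Itga1 differed from the start by 0.32 and 0.25, not called (adjusted p = 0.202 and 0.164). Pulsed cells differed from the timed control by 0.29 ± 0.14 for Lix1 (adjusted p = 0.313). For Itga1 that difference was 0.37 ± 0.10 (adjusted p = 0.0413), with arrays that overlapped.

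The genes that fell toward day 0 included secreted signals and targets of Nodal and BMP signalling. Pdgfc, a platelet-derived growth factor ligand, had signals of 8.46, 8.56 and 8.72 in pulsed cells, 8.95, 8.95 and 9.07 in the timed control, 9.20, 9.38 and 9.41 at day 1 -Dox, and 8.48, 8.43 and 8.26 at day 0. No pulsed array reached the lowest day 1 -Dox array, and pulsed and day 0 arrays overlapped. The fall was -0.75 ± 0.082 (adjusted p = 1.01e-05), and the timed control also fell, by 0.34 on the log2 scale (adjusted p = 0.0133). At day 3 -Dox, with no pulse, Pdgfc stood at -0.01 ± 0.082 from day 0 (adjusted p = 0.956). Lefty1, a secreted antagonist of Nodal, had signals of 10.63, 10.53 and 10.85 in pulsed cells and 11.33, 11.36 and 11.36 at day 1 -Dox, against 11.07 ± 0.18 in the timed control and 10.25 ± 0.10 at day 0. It fell by 0.68 on the log2 scale (SE 0.13, adjusted p = 0.0076; 0.0617 without replicate 2 of the pulsed cells) and remained 0.42 ± 0.13 above day 0 (adjusted p = 0.0312).

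Skil, a corepressor of Smad proteins that Nodal and TGF-beta signalling induces, had signals of 10.14, 10.15 and 10.26 in pulsed cells against 10.55, 10.64 and 10.60 at day 1 -Dox. Its arrays did not overlap, the difference was -0.42 ± 0.071 (adjusted p = 0.00398), and the timed control differed from the same start by -0.10 ± 0.071 (adjusted p = 0.471). Id1, a helix-loop-helix inhibitor that BMP signals induce, fell by 0.37 on the log2 scale (adjusted p = 0.0434), a call lost without any 1 array but replicate 2 of day 1 -Dox (adjusted p = 0.086 to 0.307). These were 3 of 16 measured genes of the Nodal and BMP list, with none higher, where 0.351% of all clusters tested were called lower. The list's median difference was -0.13, against 0.01 over all clusters tested. Without the pulse the list's median was -0.08, with 2 genes called lower and 0 higher. Between pulsed cells and the timed control Skil was called (adjusted p = 0.0115), but Lefty1 and Id1 were not (adjusted p = 0.0719 and 0.277). At day 3 -Dox Lefty1 and Skil still stood above day 0, by 0.59 and 0.48 (adjusted p = 0.00051 and 5.63e-06). Id1 stood at -0.09 from day 0 there (adjusted p = 0.455). Nodal itself differed by -0.23 (adjusted p = 0.358) and Bmp4 by 0.17 (adjusted p = 0.574).

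Apela, which encodes a peptide ligand of the apelin receptor, moved in opposite directions with and without the pulse. Its signals were 9.25, 9.13 and 9.45 in pulsed cells, 10.08, 10.43 and 10.20 in the timed control, 9.74, 9.91 and 9.83 at day 1 -Dox, and 8.75, 8.71 and 8.82 at day 0. The 3 day 1 groups did not overlap: pulsed cells fell by 0.55 on the log2 scale (adjusted p = 0.0233) and the timed control rose by 0.41 (adjusted p = 0.0397). The call for the fall was lost without any 1 array but replicate 3 of the pulsed cells (adjusted p = 0.0578 to 0.177).

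Dusp27, Slc5a11 and Napsa fell to levels that overlapped those of day 0. At day 3 -Dox, with no pulse, they stood at -0.14, -0.09 and -0.08 from day 0. None of these differences was called (adjusted p = 0.181, 0.348 and 0.544), so their day 1 rise did not last through withdrawal. The same day 1 -Dox arrays enter these falls and the changes from day 0 before them, so error there alone could look like a return. Dusp27, of the dual-specificity phosphatase family, averaged 8.80 ± 0.06 in pulsed cells and 9.38 ± 0.12 at day 1 -Dox (SD, n = 3 each) and differed from day 0 by 0.04 ± 0.076 (adjusted p = 0.791). Slc5a11, a sodium-coupled inositol transporter, averaged 8.20 ± 0.02 and 8.72 ± 0.11 in the same groups, and Napsa, an aspartic protease, 7.38 ± 0.04 and 7.90 ± 0.05. The 3 genes fell by 0.58, fell by 0.51 and fell by 0.52 on the log2 scale, with adjusted p of 0.000129, 0.000303 and 0.00468. Without the pulse Dusp27 and Napsa also fell, by 0.43 (adjusted p = 0.00177) and by 0.30 (adjusted p = 0.0459) on the log2 scale, and neither was called between pulsed cells and the timed control (adjusted p = 0.304 and 0.21). Slc5a11 differed by -0.10 ± 0.071 without the pulse (adjusted p = 0.451) and by -0.41 ± 0.071 between pulsed cells and the timed control (adjusted p = 0.00135). Ccdc160 and Epp13 moved part of the way: against the start they differed by -0.52 ± 0.085 (adjusted p = 0.0029) and -0.51 ± 0.094 (adjusted p = 0.0076; 0.0568 without replicate 3 of day 1 -Dox), with the timed control at 0.01 and 0.03 from the start, and they stood at 0.25 ± 0.085 and 0.27 ± 0.094 from day 0 (adjusted p = 0.0606 and 0.0629). Glod5 differed by -0.54 ± 0.094 (adjusted p = 0.00468; 0.0535 without replicate 3 of day 1 -Dox) and all its pulsed arrays lay below day 0 (-0.23 ± 0.094, adjusted p = 0.122). It fell without the pulse too (-0.32 ± 0.094, adjusted p = 0.0441), and pulsed cells and the timed control were not called apart (adjusted p = 0.214). Dpp4, a cell-surface dipeptidase, differed by -0.47 ± 0.094 (adjusted p = 0.0127), a call lost without replicate 2 of the pulsed cells, replicate 1 or replicate 3 of day 1 -Dox (adjusted p = 0.0995, 0.0575 and 0.06). It stood 0.28 ± 0.094 above day 0 (adjusted p = 0.0516), and the timed control differed from the start by -0.30 ± 0.094 (adjusted p = 0.0527). At day 3 -Dox Dpp4 stood at 0.08 ± 0.094 from day 0 (adjusted p = 0.549). Ccdc160 and Epp13 stood at 0.71 and 0.65 there (adjusted p = 2.73e-07 and 4.12e-06). Psg27 moved away from day 0: it differed from the start by -0.61 ± 0.12 (adjusted p = 0.0123), at signals of 3.35 ± 0.07 in pulsed cells and 3.95 ± 0.04 at day 1 -Dox, near the bottom of the arrays' range. It ended at -0.49 ± 0.12 from day 0 (adjusted p = 0.00725), and the timed control differed from the start by -0.37 ± 0.12 (adjusted p = 0.0623). Its call was lost without replicate 1 or 3 of the pulsed cells or replicate 2 or 3 of day 1 -Dox (adjusted p = 0.0543 to 0.0703).

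Other genes moved the same way with and without the pulse, differences that share the day 1 -Dox arrays as their start. Copz2, which encodes a coatomer subunit, had signals of 8.63, 8.64 and 8.70 in pulsed cells, 9.08, 9.12 and 9.14 in the timed control, 7.66, 8.26 and 7.84 at day 1 -Dox, and 7.78 ± 0.12 at day 0 (SD, n = 3). Pulsed cells lay between the start and the timed control with no overlap. They were 0.74 ± 0.12 above the start (adjusted p = 0.00301) and -0.46 ± 0.12 from the timed control (adjusted p = 0.0344). The tetraspanin gene Tspan2 had the same order of groups, with 8.36, 8.37 and 8.50 in pulsed cells, 8.90, 8.91 and 8.74 in the timed control and 7.72, 8.05 and 7.95 at day 1 -Dox. Its rise over the start was 0.51 ± 0.11 (adjusted p = 0.0259), lost without any 1 array but replicate 2 of day 1 -Dox (adjusted p = 0.0796 to 0.213).

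Car13, a cytosolic carbonic anhydrase, rose by 0.57 ± 0.094 with the pulse (adjusted p = 0.0029) and by 0.70 ± 0.094 without it (adjusted p = 0.000114), and pulsed and timed control arrays overlapped. At day 1 -Dox it had been below day 0 (-0.50 ± 0.094, adjusted p = 0.000892), and pulsed cells stood at 0.07 ± 0.094 from day 0 (adjusted p = 0.719). The growth hormone receptor gene Ghr rose by 0.54 ± 0.11 with the pulse (adjusted p = 0.0208) and 0.53 ± 0.11 without it (adjusted p = 0.0067). It too had been below day 0 at day 1 -Dox (-0.38 ± 0.11, adjusted p = 0.0416), and pulsed cells stood at 0.15 ± 0.11 from day 0 (adjusted p = 0.447). Its call with the pulse was lost without replicate 1 or 3 of the pulsed cells or replicate 1 or 3 of day 1 -Dox (adjusted p = 0.0851 to 0.156). Copz2, Tspan2, Krt18 and Hsd17b14, in contrast, had not been called between day 1 -Dox and day 0 (adjusted p = 0.659, 0.602, 0.409 and 0.8) and ended away from day 0 in pulsed cells. Krt18, a keratin of simple epithelia and trophectoderm, rose by 0.36 ± 0.075 with the pulse (adjusted p = 0.0168) and 0.60 ± 0.075 without it (adjusted p = 5.3e-05). Its call with the pulse was likewise lost without replicate 1 or 3 of either group (adjusted p = 0.074 to 0.118). Hsd17b14, a hydroxysteroid dehydrogenase, fell by 0.49 on the log2 scale with the pulse (adjusted p = 0.00361) and by 0.64 without it (adjusted p = 0.000112). Its signals were 9.36, 9.39 and 9.36 in pulsed cells, 9.22, 9.24 and 9.23 in the timed control and 9.85, 9.83 and 9.92 at day 1 -Dox, so every array of both later groups lay below the start.

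**Figure D2:**
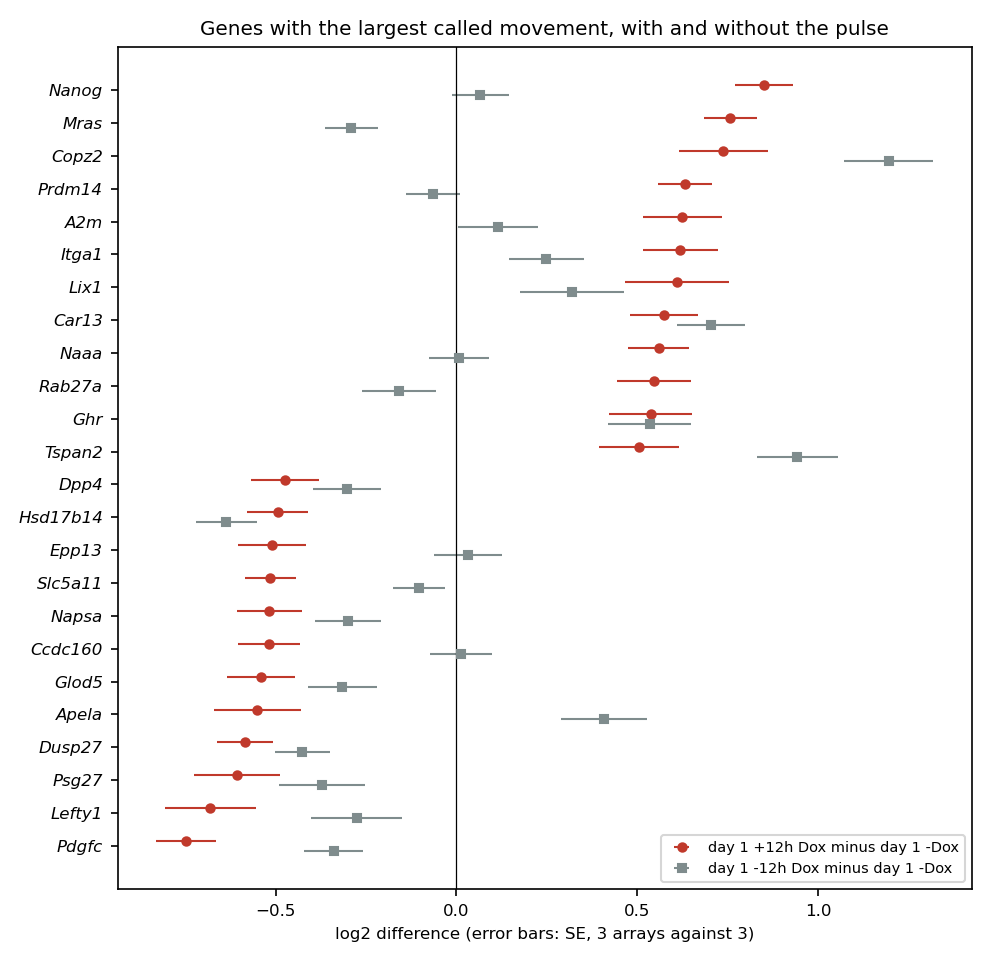
Log2 difference from day 1 -Dox (x axis, error bars SE) of the 12 largest called rises and 12 largest called falls in pulsed cells, for day 1 +12h Dox (circles) and day 1 -12h Dox (squares). Nanog, Mras, Prdm14, Naaa and Rab27a moved with the pulse and stood near or below 0 without it, whereas Copz2, Car13, Ghr, Tspan2 and Hsd17b14 moved in the same direction in both.

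The largest movements of all were in transcripts of the miR-302 cluster, and the miR-17 to miR-92 cluster moved the other way. Both clusters make several microRNAs from 1 primary transcript, and their members share seeds, bases 2 to 8, which choose the target messages. The miR-302 microRNAs are typical of pluripotent cells, while miR-17 to miR-92 act in proliferation. The array clusters read the hairpin transcripts and not the mature microRNAs, and members of 1 cluster are not independent. The microRNAs were named after their values were seen. Mature sequences from RefSeq (GRCm38.p6) were found for 10 of the 11, all but miR-302a-3p, and are given 5′ to 3′ with the seed in capitals to show which members share one.
miR-302b-3p: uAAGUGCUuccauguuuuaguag
miR-302d-3p: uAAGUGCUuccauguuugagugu
miR-302c-3p: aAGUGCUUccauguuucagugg
miR-17-5p: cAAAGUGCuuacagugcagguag
miR-20a-5p: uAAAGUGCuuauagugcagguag
miR-18a-5p: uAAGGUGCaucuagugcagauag
miR-19a-3p: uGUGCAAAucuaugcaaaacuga
miR-19b-3p: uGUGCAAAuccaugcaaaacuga
miR-92a-3p: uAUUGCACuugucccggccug
miR-367-3p: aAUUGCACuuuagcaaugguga
The seed AAGUGCU was shared by miR-302b and miR-302d, AAAGUGC by miR-17 and miR-20a, GUGCAAA by miR-19a and miR-19b, and AUUGCAC by miR-92a and miR-367, which lie in different clusters.

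In RefSeq the miR-302 hairpins with miR-367 span chr3:127545228-127545807 on the plus strand, inside the bounds of Larp7 and of the predicted gene Gm51018. Mir302d, the member with the smallest error, had signals of 6.59, 6.51 and 6.66 in pulsed cells, 6.12, 6.35 and 6.33 in the timed control, 5.23, 5.35 and 5.25 at day 1 -Dox, and 5.34, 5.66 and 5.54 at day 0. Both later groups lay wholly above the start and above day 0. Mir302d rose by 1.31 ± 0.16 with the pulse (adjusted p = 5.02e-05) and by 0.99 ± 0.16 without it (adjusted p = 0.000726), and the pulsed cells differed from the timed control by 0.32 ± 0.16 (adjusted p = 0.327).

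Mir302c had signals of 6.63, 6.39 and 6.36 in pulsed cells and 4.87, 4.85 and 5.13 at day 1 -Dox, a rise of 1.51 ± 0.24 (adjusted p = 0.0021). Mir302a and Mir302b rose by 1.59 ± 0.30 (adjusted p = 0.00987) and 1.52 ± 0.30 (adjusted p = 0.0134). Both of these calls were lost without replicate 1 or 3 of the pulsed cells or replicate 3 of day 1 -Dox (adjusted p = 0.0551 to 0.0981). Without the pulse Mir302a, Mir302b and Mir302c also rose, by 1.01, 1.26 and 1.19 (adjusted p = 0.0464, 0.0132 and 0.00397). None of the 3 was called between pulsed cells and the timed control (adjusted p = 0.349, 0.737 and 0.56). At day 3 -Dox Mir302a, Mir302b, Mir302c and Mir302d stood above day 0 by 1.55, 1.10, 1.29 and 1.23, all called. Mir367 differed by 0.60 ± 0.29 from the start in pulsed cells (adjusted p = 0.554). These signals lay below the arrays' medians. The 2 Larp7 clusters differed by -0.08 and -0.14 (adjusted p = 0.868 and 0.79).

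The miR-17 to miR-92 hairpins span chr14:115043671-115044506 on the plus strand, and the last of them lies within Mir17hg in RefSeq. The cluster named for Mir92-1 and Mir17hg had signals of 8.52, 8.29 and 8.42 in pulsed cells, 8.99, 8.65 and 9.09 in the timed control, 8.94, 9.05 and 8.99 at day 1 -Dox, and 8.48, 8.18 and 8.01 at day 0. Pulsed arrays lay below all day 1 -Dox arrays and overlapped those of day 0. The difference was -0.58 ± 0.11 (adjusted p = 0.00716; 0.0537 without replicate 2 of the pulsed cells). Mir18 differed by -0.71 ± 0.13 (adjusted p = 0.0076), Mir19b-1 by -0.64 ± 0.12 (adjusted p = 0.00951) and Mir17 by -0.55 ± 0.12 (adjusted p = 0.0229). Mir19a and Mir20a differed by -0.70 ± 0.17 and -0.55 ± 0.15 and were not called (adjusted p = 0.0516 and 0.0912). The call was lost for Mir18 without replicate 2 of the pulsed cells or replicate 1 of day 1 -Dox (adjusted p = 0.0641 and 0.0575) and for Mir19b-1 without replicate 2 of either group (0.0693 and 0.0627). For Mir17 it was lost without replicate 1 of the pulsed cells or replicate 2 or 3 of day 1 -Dox (0.139 to 0.178). Over the 12 h without doxycycline the 6 transcripts differed from the start by -0.09 to 0.08, and none was called. Between pulsed cells and the timed control all 6 were called lower, at -0.72 to -0.50 (adjusted p = 0.00682 to 0.0163). In that contrast 3.2% of all clusters tested were called lower.

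The genes that withdrawal changed most stayed, by their medians, near their day 1 level in pulsed cells. Day 3 -Dox against day 0 +Dox shares no array with the day 1 groups, and it served to define genes that withdrawal moves: 7914 clusters were called there (33.8%), 4580 higher (19.6%) and 3334 lower (14.3%), of which 193 rose and 137 fell at least 2-fold. For the 193 that rose by day 3, the median difference from the day 1 start was 0.06 in pulsed cells and 0.43 in the timed control. Of these, 10 were called higher and 4 lower in pulsed cells, against 103 higher and 0 lower in the timed control. For the 137 that fell by day 3, the median difference from the start was -0.13 in pulsed cells and -0.32 in the timed control, with 6 called higher and 4 lower in pulsed cells and 0 higher and 47 lower in the timed control. Over all clusters tested the medians were 0.01 and 0.00. There 0.321% of clusters were called higher and 0.351% lower in pulsed cells, and 5.02% and 1.23% in the timed control. In pulsed cells 7.25% of the first set and 7.3% of the second were called in either direction, against 0.671% of all clusters tested. In both sets the median of the pulsed cells therefore lay on the withdrawal side of the start, not on the day 0 side. Leaving out 1 array left both signs in place for pulsed cells, at 0.02 (without replicate 3 of the pulsed cells) to 0.12 (without replicate 2 of day 1 -Dox) for the first set and -0.16 to -0.10 for the second.

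**Figure D3:**
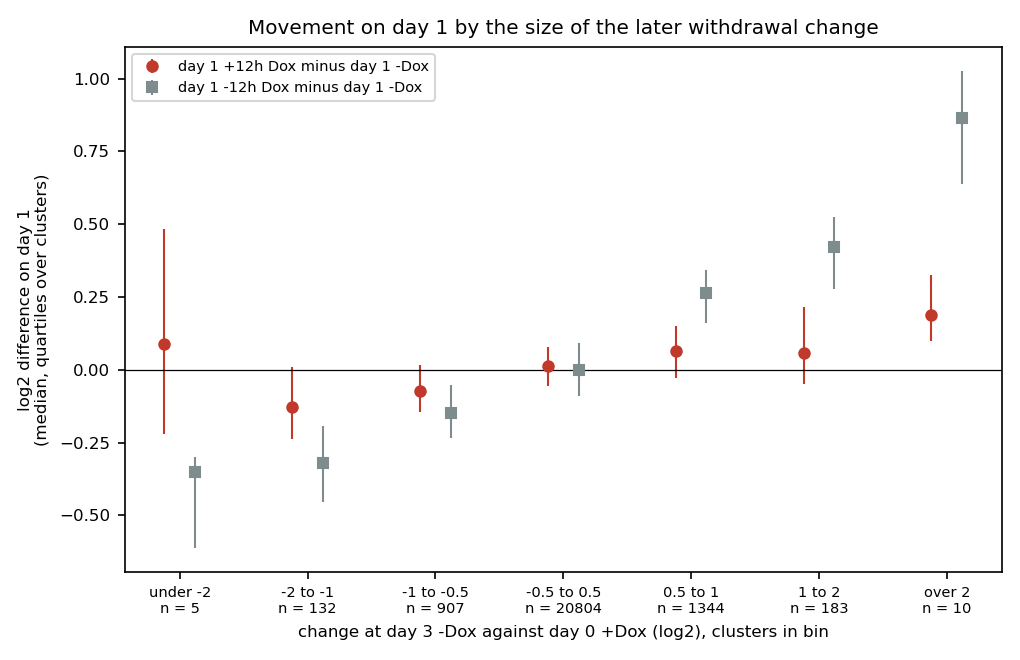
Log2 difference from day 1 -Dox (y axis, median and quartiles over clusters) for day 1 +12h Dox (circles) and day 1 -12h Dox (squares), by the change at day 3 -Dox against day 0 +Dox (x axis, log2 bins, number of clusters under each). The timed control moved further with larger day 3 changes while the pulsed medians stayed between -0.13 and 0.19; the outermost bins hold 5 and 10 clusters only.

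Car4, a membrane-anchored carbonic anhydrase and one of the largest day 3 rises, had signals of 8.96, 8.95 and 9.20 in pulsed cells, 9.76, 9.90 and 9.76 in the timed control, 8.67, 8.89 and 8.73 at day 1 -Dox, and 8.02, 8.22 and 7.88 at day 0. Pulsed cells differed from the start by 0.27 ± 0.083 (adjusted p = 0.169) and the timed control rose by 1.04 ± 0.083 (adjusted p = 3.47e-08). Direct comparison of pulsed cells with the timed control, which called 877 clusters (3.75%), 128 higher (0.547%) and 749 lower (3.2%), gave -0.77 ± 0.083 (adjusted p = 6.22e-06). That split was 419 higher and 678 lower with the interquartile range as a covariate, and 288 higher and 618 lower without replicate 3 of the timed control. The count was 319 with replicate 2 of the timed control left out and 372 or 288 with replicate 1 or 2 of the pulsed cells left out.

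Greb1l had signals of 7.50, 7.49 and 7.56 in pulsed cells, 8.24, 8.43 and 8.44 in the timed control and 7.32, 7.74 and 7.46 at day 1 -Dox. Pulsed arrays fell inside the day 1 -Dox range, at a difference of 0.01 ± 0.13 (adjusted p = 0.995), while the timed control rose by 0.86 ± 0.13 (adjusted p = 0.00029). Serinc5, a multipass membrane protein that restricts retroviral infectivity, differed by -0.00 ± 0.11 in pulsed cells (adjusted p = 0.997) and rose by 0.73 ± 0.11 in the timed control (adjusted p = 0.000347). Prtg, an immunoglobulin-superfamily membrane protein of the early embryo, differed by -0.01 ± 0.088 (adjusted p = 0.994) and rose by 0.65 ± 0.088 (adjusted p = 0.000116) in the same 2 comparisons. Krt7, a keratin of simple epithelia, gave 0.08 ± 0.063 (adjusted p = 0.804) and 0.63 ± 0.063 (adjusted p = 1.53e-06).

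Ferroportin (Slc40a1), the cellular iron exporter, stood at 9.68 ± 0.05 in pulsed cells, 10.10 ± 0.21 in the timed control, 9.47 ± 0.05 at day 1 -Dox and 8.17 ± 0.11 at day 0 (SD, n = 3 each). Its pulsed difference from the start was 0.22 ± 0.083 (adjusted p = 0.37), and pulsed cells stayed 1.51 ± 0.083 above day 0 (adjusted p = 5.4e-12). Adgrl2, an adhesion receptor, and Lpar6, a lysophosphatidic acid receptor, differed from the start by 0.09 and -0.22 in pulsed cells (adjusted p = 0.886 and 0.56) and rose by 0.66 and 0.37 in the timed control (adjusted p = 0.00028 and 0.0355). Dnah8, an axonemal dynein chain, differed by -0.22 ± 0.11 (adjusted p = 0.552) and rose by 0.44 ± 0.11 in the timed control (adjusted p = 0.0146). Meiob, a meiotic DNA-binding gene of low signal, differed by 0.12 ± 0.24 (adjusted p = 0.958) and rose by 0.85 ± 0.24 in the timed control (adjusted p = 0.0311). Usp17ld was too variable to place: its day 1 -Dox arrays read 7.51, 11.20 and 11.12, and its pulsed arrays 10.88, 11.16 and 11.56.

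Of the 8 named genes with the largest falls at day 3, Mras alone was called in pulsed cells against the start. Gng3, a G protein gamma subunit, had signals of 9.45, 9.34 and 9.54 in pulsed cells, 8.61, 8.83 and 8.95 in the timed control, 9.48, 9.39 and 9.74 at day 1 -Dox and 10.08, 10.00 and 10.06 at day 0. Pulsed and day 1 -Dox arrays overlapped (-0.09 ± 0.10, adjusted p = 0.901), and the timed control fell by 0.74 on the log2 scale (adjusted p = 0.000229). Spink1, a trypsin inhibitor, differed by -0.19 ± 0.12 in pulsed cells (adjusted p = 0.733) and -0.78 ± 0.12 in the timed control (adjusted p = 0.000523). Tubb3, a tubulin best known from neurons, differed by 0.18 ± 0.085 (adjusted p = 0.552) and -0.51 ± 0.085 (adjusted p = 0.00102). Khdc3, a maternal-effect gene, differed by -0.22 ± 0.12 (adjusted p = 0.639) and -0.61 ± 0.12 (adjusted p = 0.00405), and Ccnd1, the cyclin D1 gene, by -0.30 ± 0.080 (adjusted p = 0.0935) and -0.58 ± 0.080 (adjusted p = 0.000162). Eras, an ES cell Ras gene, differed by 0.09 ± 0.12 (adjusted p = 0.926) and -0.35 ± 0.12 (adjusted p = 0.0754). Calcoco2, an autophagy receptor, differed by 0.48 ± 0.17 from the start in pulsed cells (adjusted p = 0.29), although its arrays (9.56, 9.39 and 9.28 against 9.05, 8.82 and 8.91) did not overlap.

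The pluripotency genes Pou5f1, Sox2, Esrrb, Klf2, Klf4, Tbx3, Zfp42 and Dppa3 were not called against the start. Pou5f1 stood at 12.24 ± 0.06 in pulsed cells and 12.19 ± 0.06 at day 1 -Dox, and Sox2 at 11.94 ± 0.04 and 12.12 ± 0.03 (SD, n = 3 each), with adjusted p of 0.954 and 0.49. Esrrb, a direct Nanog partner in self-renewal, differed by 0.09 ± 0.11 (adjusted p = 0.916), Klf2 by -0.12 ± 0.075 (0.724), Tbx3 by 0.09 ± 0.067 (0.789), Zfp42 by 0.06 ± 0.097 (0.947) and Dppa3 by -0.09 ± 0.14 (0.94). Klf4 differed by 0.01 ± 0.093 in pulsed cells (adjusted p = 0.991), whereas it fell by 0.38 on the log2 scale in the timed control (adjusted p = 0.0144). Of the 29 measured naive pluripotency genes, 3 rose (Nanog, Mras, Prdm14) and 3 fell (Tcl1, Tfcp2l1, Dppa4), with a median of 0.01. Over all clusters tested 0.321% were called higher and 0.351% lower. Tcl1, an Akt coactivator of ES cells, differed by -0.42 ± 0.095 (adjusted p = 0.0356), lost without any 1 of the 6 arrays (adjusted p = 0.0683 to 0.195). Its move was away from day 0. At day 1 -Dox it stood at -0.14 ± 0.095 from day 0 (adjusted p = 0.529), and in pulsed cells at -0.55 ± 0.095 (adjusted p = 0.000371). The transcription factor gene Tfcp2l1 differed by -0.37 ± 0.079 (adjusted p = 0.0231), lost without any 1 array but replicate 2 of day 1 -Dox (adjusted p = 0.0799 to 0.165). Dppa4 differed by -0.31 (adjusted p = 0.048).

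Genes of the formative and primed epiblast, the stages that follow the naive state, also stayed near their start. Of 23 measured, none rose and 2 fell, Fgf15 and Foxp1, with a median of -0.04. Over all clusters tested 0.321% were called higher and 0.351% lower. Otx2, which drives the exit from the naive state, had signals of 9.41, 9.30 and 9.67 in pulsed cells, 9.94, 9.79 and 10.19 in the timed control, 9.79, 9.76 and 9.72 at day 1 -Dox, and 8.14, 8.36 and 8.01 at day 0. Its pulsed arrays were all below those of day 1 -Dox, but the difference of -0.30 ± 0.11 was not called (adjusted p = 0.308), and 1.29 ± 0.11 of its rise over day 0 remained (adjusted p = 2.92e-08). Fgf5, a marker of the primed epiblast, differed by 0.23 ± 0.10 (adjusted p = 0.533). Fgf15, a fibroblast growth factor, fell by 0.41 on the log2 scale (adjusted p = 0.023), lost without replicate 1 or 2 of the pulsed cells or replicate 1 or 3 of day 1 -Dox (0.0703 to 0.197). The forkhead gene Foxp1 fell by 0.34 (adjusted p = 0.0127), lost without replicate 1 or 3 of the pulsed cells or replicate 3 of day 1 -Dox (0.0703 to 0.11). Among 22 shared pluripotency genes, none rose and 2 fell, Mycn by 0.39 (adjusted p = 0.0231) and L1td1 by 0.33 (adjusted p = 0.0131) on the log2 scale. The Mycn call was lost without any 1 array but replicate 2 of day 1 -Dox (0.0685 to 0.135), and that of L1td1 without replicate 1 or 2 of the pulsed cells or replicate 2 or 3 of day 1 -Dox (0.0582 to 0.0948).

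Of the 25 gene lists examined, 16 held no called gene. Only 0.671% of all clusters tested were called, so a list of this size without a call says little about its genes. They included ERK feedback, Wnt targets, extraembryonic endoderm, mesoderm, neuroectoderm, p53 targets, hypoxia and glycolysis, S phase, mitosis, ribosome biogenesis and cholesterol synthesis. Among 18 interferon response genes Stat2 rose by 0.40 ± 0.081 (adjusted p = 0.0156) and Ifitm3 by 0.39 ± 0.086 (adjusted p = 0.0238). The Stat2 call was lost without replicate 3 of the pulsed cells or replicate 1 or 3 of day 1 -Dox (0.0575 to 0.113), and the Ifitm3 call without any 1 of the 6 arrays (0.0591 to 0.128). Among 23 ATF4 targets Phgdh, an enzyme of serine synthesis, fell by 0.41 on the log2 scale (adjusted p = 0.0233), lost without any 1 array but replicate 3 of the pulsed cells (0.0825 to 0.133). Phgdh moved away from day 0, from -0.18 ± 0.090 at day 1 -Dox (adjusted p = 0.285) to -0.60 ± 0.090 in pulsed cells (adjusted p = 8.22e-05). Among 19 trophectoderm genes only Krt18 was called. Of 29 feeder fibroblast genes only Ccn2, a matricellular protein gene, was called. It had signals of 9.73, 9.73 and 9.80 in pulsed cells and 10.17, 10.16 and 10.23 at day 1 -Dox, a fall of 0.43 on the log2 scale (adjusted p = 0.00825; 0.0567 without replicate 3 of day 1 -Dox), while the list's median was 0.01.

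The p53 target list moved in the timed control and not, by this test, in pulsed cells. None of its 16 measured genes was called in pulsed cells against the start, with a median of -0.07. In the timed control 7 rose and none fell, with a median of 0.26, where 5.02% of all clusters tested were called higher. Against the timed control 7 were lower in pulsed cells, where 3.2% of all clusters tested were called lower. Both counts rest on the same timed control arrays, so the second partly restates the first. Zmat3, an RNA-binding p53 target, differed by -0.14 in pulsed cells (adjusted p = 0.868) and rose by 0.49 in the timed control (adjusted p = 0.025). Trp53inp1, a stress-induced p53 cofactor, gave -0.04 (adjusted p = 0.948) and 0.35 (adjusted p = 0.002), and Btg2, an antiproliferative gene, -0.08 (adjusted p = 0.868) and 0.30 (adjusted p = 0.02).

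**Figure D4:**
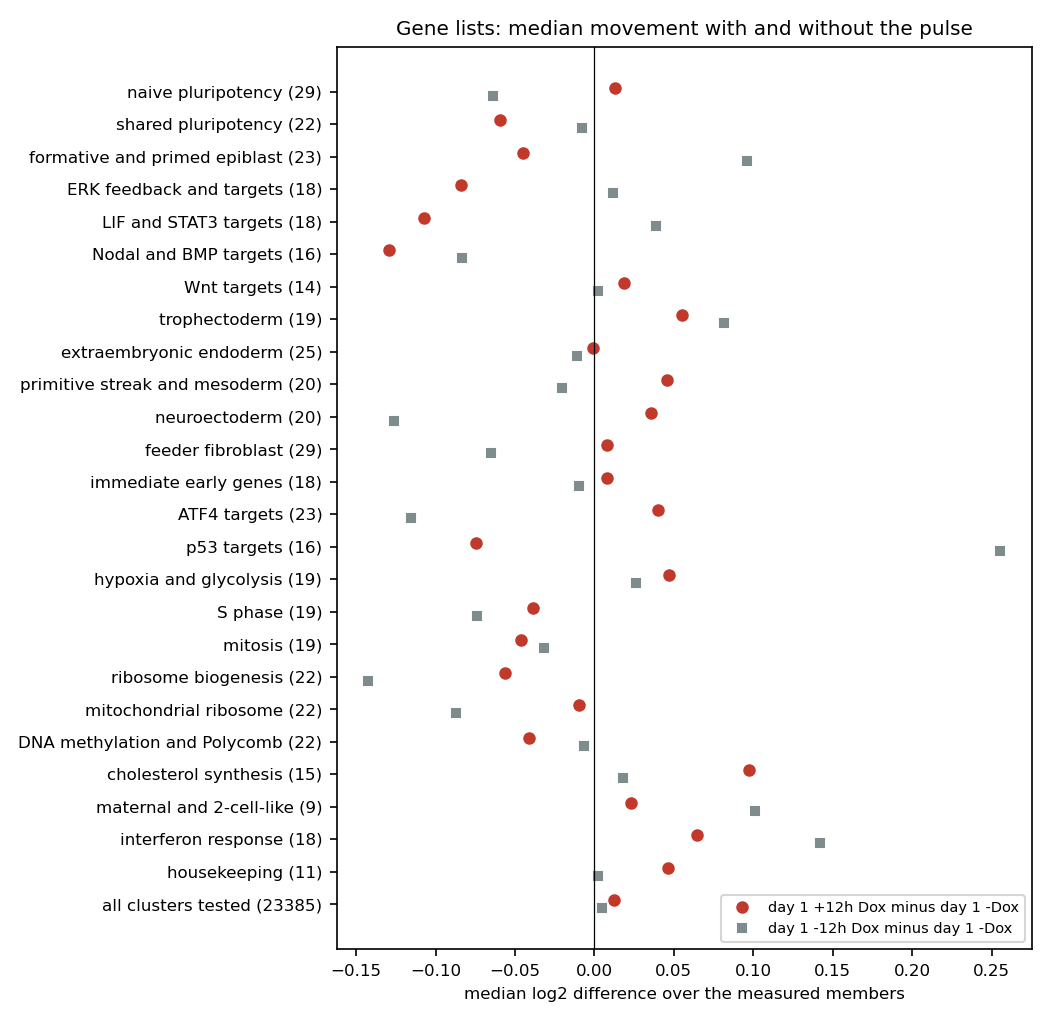
Median log2 difference from day 1 -Dox (x axis) over the measured members (number in brackets) of 25 gene lists and of all clusters tested, for day 1 +12h Dox (circles) and day 1 -12h Dox (squares). The p53 targets lay at -0.07 with the pulse and 0.26 without it. The Nodal and BMP targets had the lowest median with the pulse, -0.13, and lay at -0.08 without it.

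After the pulse the cells still differed from the culture before withdrawal. Against day 0, 2623 clusters were called in pulsed cells (11.2%), 1456 higher and 1167 lower, and the count was 1373 with replicate 3 of day 0 left out and 1724 or 1563 with replicate 2 or 3 of the pulsed cells left out. The day 1 -Dox start itself differed from day 0 at 1522 clusters (6.51%). Both contrasts rest on the same day 0 arrays, so they are given side by side and their lists are not set against each other. At day 0, no array was taken at the hour of the pulsed cells, and time in culture and withdrawal cannot be told apart in these 2 counts.

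The movement from the start at day 1 was then set against the same movement at later days. Its difference from the day 3 movement was called at 145 clusters (0.62%), 85 higher and 60 lower, with 39 to 209 when 1 array was left out, lowest without replicate 2 of day 3 -Dox. The day 3 pulse alone called 796 clusters against day 3 -Dox (3.4%). Nanog rose by 0.85 at day 1 and by 0.46 ± 0.080 at day 3 (adjusted p = 0.00101 at day 3), and the difference between the days was not called (0.39 ± 0.11, adjusted p = 0.106). Prdm14 rose by 0.63 at day 1 and by 0.67 ± 0.074 at day 3 (adjusted p = 4.91e-06 at day 3; difference -0.04 ± 0.10, adjusted p = 0.942). Mras rose by 0.76 at day 1 and differed by 0.14 ± 0.074 at day 3 (adjusted p = 0.354 at day 3), and its movement was larger at day 1 by 0.61 ± 0.10 (adjusted p = 0.00468). Against the movement at day 5 the difference was called at 1377 clusters (5.89%), among them Mras at 0.72 ± 0.10 (adjusted p = 0.00014) and Pdgfc at -0.97 ± 0.12 (adjusted p = 1.31e-05), while Nanog (-0.14 ± 0.11, adjusted p = 0.555) and Prdm14 (0.10 ± 0.10, adjusted p = 0.679) were not called.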

How the data were processed

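Total RNA of 30 samples, 10 groups of 3, was read on Affymetrix Mouse Gene 1.0 ST arrays. Per the submitters' processing notes, the authors' deposited log2 signals came from the Affymetrix Expression Console and its RMA routine, which corrects background, equalizes the distributions of arrays and combines the probes of a cluster. Versions and build are not given in the sources used here. Arrays have no read depth, and 3 arrays per group limit the precision.

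Values were used as deposited. The platform table gave 1 symbol to 21780 clusters, several to 1605 and none to 5430. The first 2 kinds were tested with limma 3.58.1 (R 4.3.3), with 1 mean per group over all 30 arrays, eBayes and Benjamini-Hochberg adjustment, called at 0.05. The fit was tested on simulated data. Of the 157 called clusters, 4 repeated the values of another and 16 were small RNAs. A gene with several clusters is given by the brightest.

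Named genes were Nanog, the 12 largest called rises and 12 largest falls without array overlap (unnamed transcripts and small RNAs left out), 6 and 6 of the pulse against the timed control, 8 and 8 of day 3 against day 0, 5 and 5 differences between day 1 and day 3, up to 4 called genes per list and a core set. Dppa4, Nodal, Bmp4, Zmat3, Trp53inp1, Btg2, Larp7 and the microRNAs were added after their values were seen. Members and lists were chosen with earlier results of these data known. Alternatives changed the samples in the fit, moderation, array weights, normalization, spread covariate, filter, clusters tested, replicate block and single arrays.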

Additional observations from a re-analysis of the deposited data

Results flagged for a closer look

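Several named genes moved differently at day 1 than at a later day, by the limma test of the difference between the 2 movements at an adjusted p under 0.05. The value given is the day 1 movement (day 1 +12h Dox minus day 1 -Dox) minus the later one, on the log2 scale. Genes with a larger value at day 1 than at day 3 were Tspan2 (1.17), Mme (1.00), Car13 (0.96), Prxl2a (0.86), Copz2 (0.85), Car4 (0.74), Ghr (0.70), Itga1 (0.67), Mras (0.61), Slc40a1 (0.60) and the microRNA transcript Mir302d (1.24). Genes with a smaller value at day 1 were Ier3 (-1.11), Gbe1 (-1.01), Bhlhe40 (-0.97), Zfp428 (-0.94), Hmox1 (-0.94), Khdc3 (-0.82), Hsd17b14 (-0.69), Glod5 (-0.62) and Ccnd1 (-0.48).

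For Tspan2, Car13 and Prxl2a the called directions were opposite. Tspan2 rose by 0.51 at day 1 and fell by 0.66 at day 3 on the log2 scale. Car13 rose by 0.57 and fell by 0.39. Prxl2a differed by 0.48 (adjusted p = 0.0131) at day 1 and by -0.38 (adjusted p = 0.0241) at day 3. Its day 1 call was lost without replicate 2 or 3 of the pulsed cells or replicate 1 or 3 of day 1 -Dox (adjusted p = 0.0617 to 0.134). Ier3, an immediate early gene, and Bhlhe40, a circadian and hypoxia-responsive factor, differed by 0.34 and 0.14 at day 1, neither called, and rose by 1.45 and 1.11 at day 3. Mme, a membrane metalloendopeptidase, differed by 0.39 at day 1 (adjusted p = 0.0526) and fell by 0.61 at day 3.

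The microRNA transcripts differed between day 1 and day 5, a contrast that called 1377 clusters (5.89%). The value was 1.85 for Mir302a, 1.57 for Mir302b, 1.58 for Mir302c and 1.52 for Mir302d, and -0.87 for Mir17, -1.03 for Mir18, -0.94 for Mir19a, -1.02 for Mir20a, -0.96 for Mir19b-1 and -1.02 for the cluster of Mir92-1 and Mir17hg.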

How the results depend on the processing

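Of 46 named clusters called in pulsed cells against day 1 -Dox, 11 were called under all 16 alternatives: Nanog, Mras, Prdm14, Naaa, Car13, Pdgfc, Dusp27, Hsd17b14, Napsa, Skil and Slc5a11. Mir302c and Mir302d were called under the 15 in which they were tested, since their signals fell among the lowest 40% that 1 setting left out, as did those of 4 more of the 46. None reversed where it was tested. Of the 46, 19 lost the call in a fit of the 2 groups alone, 15 in a fit of the 4 groups of day 0 and day 1, and 9 to 25 without 1 array, most without replicate 3 of day 1 -Dox. The count of 157 was 71 with 2 groups, 63 with 4 groups, 1534 with array weights, 320 after quantile normalization, 586 with the interquartile range as a covariate and 41 to 98 without 1 array. Against the timed control, 877 became 74, 535 and 4573 (2 groups, 4 groups, weights) and 288 to 906 without 1 array. Over 12 h without doxycycline, 1462 became 122 (2 groups), 4302 (weights), 862 (medians centred) and 490 to 1395 without 1 array. Against day 0, 2623 became 5874 (weights), 4880 (covariate) and 1373 to 2225 without 1 array. The day 1 against day 3 count of 145 became 318 (trend and robust moderation), 2521 (weights), 87 (centred), 507 (quantile), 919 (covariate), 296 (lowest 40% of signals left out) and 39 to 209 without 1 array. The day 5 count of 1377, examined under alternatives chosen after seeing the data, became 4692 (weights), 2203 (quantile), 2558 (covariate) and 803 to 1553 without 1 array. The median of the timed control over the genes that rose at day 3 was 0.34 with the covariate, against 0.43. The cause of these shifts was not tested, beyond the fewer arrays of the smaller fits. Same-numbered pulsed and day 1 -Dox arrays did not deviate together (r = 0.15, -0.20 and 0.00), and the main fit did not pair them. With 3 arrays per group these correlations cannot exclude pairing. A fit with the replicate block called 124 clusters, all among the 157. Centring moved the median of all clusters by at most 0.07.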
